A study of Mus musculus with 6 samples.

Results

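Classical monocytes of mouse pancreatic tumors were selected from 3 single-cell libraries, 1 each for the treatments PBS, mono-IL10 and IL10/2-Trikine. A barcode was called a monocyte when it held at least 1 UMI (1 captured RNA molecule) each of Ly6c2, Ccr2 and Csf1r, at most 3 UMIs summed over the complement genes C1qa, C1qb and C1qc, at most 3 UMIs of the keratins Krt8 and Krt18, and 0 UMIs of the lymphoid and dendritic genes Cd3e, Ncr1, Klrb1c, Siglech and Flt3. It also had to hold at least 1000 genes, at most 10% mitochondrial UMIs and 1 hashtag with at least 2/3 of its hashtag UMIs, and to be absent from the deposited annotation of T and NK cells. The rule found 126 barcodes among 60351 that met the gene, mitochondrial and hashtag terms and among 130444 in all. The PBS library gave 70, the mono-IL10 library 39 and the IL10/2-Trikine library 17.

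All mice carried subcutaneous tumors of 6694c2vTRP1, a mouse pancreatic cancer line. PBS, 26 µg of mono-IL10 (a monomeric IL-10) or 30.6 µg of IL10/2-Trikine (IL-10 extended to engage the IL-2 receptor beta chain as well) was given intraperitoneally every other day from day 8, for 2 doses, and tumors were taken on day 14. CD45+ cells were enriched with beads, the cells of each mouse were marked with a hashtag antibody, and each group was then pooled into 1 droplet library. Each library held 5 hashtags, and each hashtag was taken as 1 mouse; for PBS the number of mice rests on the hashtags found. Treatment and library therefore cannot be told apart, and a mouse was the replicate. The hosts were C57BL/6 mice of both sexes by the study's methods, with the sex of each mouse not given, and the tumors came from an implanted line, so no other pancreatic tumor was sampled.

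Classical monocytes are made in the bone marrow, leave it through the chemokine receptor CCR2 and enter inflamed tissue and tumors from the blood. They carry the surface protein Ly6C, and after entry they lose it and can mature into macrophages that make C1q, apolipoprotein E and scavenger receptors. IL-10 acts on monocytes and macrophages through STAT3 and dampens antigen presentation and inflammatory cytokines, whereas signals through the IL-2 receptor beta chain run through STAT5 and are best known in T and NK cells.

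The monocytes were few and shallow. Their summed UMIs were 379037 (PBS), 290399 (mono-IL10) and 63863 (IL10/2-Trikine), with medians of 4670, 6310 and 3082 UMIs per cell. In the whole libraries the median per barcode was between 5198 and 8078 UMIs. Pairs of libraries shared between 408 and 700 barcode sequences. No doublet caller was run, so mixed droplets were removed only as far as the hashtag rule and the terms on 0 UMIs allowed.

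The terms cut through a continuum. Of 35116 barcodes with Csf1r, the receptor for the macrophage growth factor CSF1, 29411 met the keratin term, 21703 also lacked lymphoid and dendritic UMIs, 5764 of those held Ccr2, and 653 of those also held Ly6c2. The C1q term then removed all but 126. Of the Ly6c2+ Ccr2+ barcodes it left 20.8% (PBS), 22.2% (mono-IL10) and 12.1% (IL10/2-Trikine), and before it their median was 25, 33.5 and 21 C1q UMIs. Just inside the thresholds were 61 monocytes with 1 Ly6c2 UMI, 41 with 1 Ccr2 UMI, 53 with 1 Csf1r UMI and 6 with 3 C1q UMIs. Just outside, with every other term met, were 683 barcodes with 0 Ly6c2 UMIs, 65 with 0 Ccr2 UMIs, 47 with 0 Csf1r UMIs and 10 with 4 C1q UMIs. Of the 126 monocytes, 81 held no C1q UMI.

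Ly6c2 and Ccr2 were also found outside the monocytes, so the name rests on the terms as a whole. Among the C1q-high macrophages, which met the same terms except that they held more than 3 C1q UMIs and needed neither Ly6c2 nor Ccr2, both genes had a UMI in 3.34% of 7991 PBS cells, 2.24% of 6104 mono-IL10 cells and 2.18% of 5647 IL10/2-Trikine cells. Among low-C1q barcodes with Csf1r, the monocytes were 70 of 934 in PBS (7.49%, 95% exact binomial interval 5.89 to 9.37), 39 of 629 in mono-IL10 (6.2%, 4.45 to 8.38) and 17 of 398 in IL10/2-Trikine (4.27%, 2.51 to 6.75). These intervals cover counting error only. Since the rule used both genes, these shares are a description, and in IL10/2-Trikine the lower bound of 2.51% lay close to the 2.18% of macrophages. The part of free RNA, or of cells between monocyte and macrophage, among the barcodes that met the rule was not tested. In the annotated T and NK cells, which mostly lack Csf1r, both genes had a UMI in 7.36%, 17.8% and 7.86%. Ly6c2, with or without Ccr2, had a UMI in 27.5%, 35.7% and 17.1% of them. Ly6c2 with Ccr2 thus does not by itself mark monocytes here. Median depth was 6044, 6950 and 3242 UMIs in the macrophages, and 4818, 5402 and 3245 in the low-C1q barcodes outside the rule. Ly6c2 had a UMI in 1.70% to 2.63% of the keratin-high barcodes without Csf1r, which are tumor-like cells and should lack it, at medians of 10176 to 34880 UMIs.

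The third marker, Plac8, was not a term of the rule, and 98 of the 126 monocytes held it, with up to 45 UMIs in a cell. Pooled per library, it stood at 1063 CPM (UMIs of a gene over all UMIs of the same cells, scaled to 1000000) in PBS monocytes, 1267 in mono-IL10 and 532 in IL10/2-Trikine, against 79.8, 62.4 and 120 in the macrophages. Plac8 is not restricted to myeloid cells here, since the keratin-high barcodes held 2026, 1896 and 1969 CPM. The following levels are given for each library in the order PBS, mono-IL10, IL10/2-Trikine, and the contrast with macrophages is a description without a test, because the C1q term and the other terms of the rule fix part of it.

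Genes of blood monocytes stood well above their macrophage level. Vcan, a matrix proteoglycan of classical monocytes, reached 193, 424 and 188 CPM against 18.5, 15.8 and 19.2. Chil3, which marks monocytes fresh from the marrow, reached 158, 310 and 407 against 20.9, 26.0 and 30.1. Ms4a4c, a tetraspan gene of Ly6C-high monocytes, reached 253, 183 and 125 against 21.2, 15.7 and 16.4. Each of these genes was therefore higher in the monocytes of every library. In IL10/2-Trikine these levels rest on few UMIs, since its 17 monocytes held 63863 in all. Ifitm6, an interferon-induced membrane gene of monocytes, stood at 55.4, 265 and 110 against 6.41, 4.55 and 5.99. F13a1, the factor XIII subunit often used to mark monocytes, was lower in PBS and IL10/2-Trikine and level in mono-IL10, at 84.4, 255 and 110 against 188, 253 and 333. Lyz2, the lysozyme gene of monocytes and macrophages, was lower in all 3 libraries, at 4256, 2448 and 2145 against 5812, 3135 and 3082. Of the 22 classical monocyte genes with at least 10 UMIs, 18 were higher in the monocytes of all 3 libraries and 1, Lyz2, was lower, while of all 6958 genes with that many UMIs 2309 were higher and 946 lower.

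Genes of mature macrophages were low in the same cells. Apoe, the lipid carrier that dominates tumor macrophages, stood at 755, 572 and 1456 CPM against 12530, 13142 and 12546. Ms4a7, a membrane gene gained during macrophage maturation, stood at 44.9, 55.1 and 62.6 against 581, 686 and 601. Adgre1, which encodes the macrophage antigen F4/80, stood at 60.7, 72.3 and 94.0 against 238, 219 and 220. All 3 genes lay below the macrophage level in each library, and Apoe was highest in the IL10/2-Trikine monocytes. There it was uneven, at 34.3 CPM in the 8 cells with no C1q UMI and 2653 in the 9 with 1 to 3. Of 20 genes of the passage from monocyte to macrophage, 19 were lower in the monocytes of all 3 libraries and 1, Cd9, a tetraspanin, was higher at 573, 479 and 438 against 376, 213 and 251. The non-classical monocyte genes, which mark patrolling Ly6C-low cells, showed no common direction, with 2 of 8 higher and 2 lower. Pooled over a library the label thus stood on its markers, with Ly6c2 and Ccr2 fixed by the rule and Plac8, Vcan, Chil3 and Ms4a4c outside it. F13a1, also outside the rule, was lower in PBS and IL10/2-Trikine. A level above macrophages in all 3 libraries was not particular to monocyte markers. It was also seen for 7 of 8 T cell, 3 of 4 NK cell and 2 of 3 conventional dendritic cell markers. Levels of Plac8 and Ms4a4c in T and NK cells were not compared. The label was weakest in IL10/2-Trikine mouse 1, whose 6 monocytes held Plac8 at 143 CPM (3 UMIs) beside 105 in its macrophages and Ifitm6 at 0. Of these 6, 1 had no C1q UMI. IL10/2-Trikine mouse 2 held Plac8 at 936 CPM beside 118. Its 7 monocytes also held tumor epithelial markers at 1343 CPM, with 32 UMIs in 1 cell. The part of that cell in the Plac8 level was not tested. These are the 2 IL10/2-Trikine mice of the gene comparisons below.

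**Figure D1:**
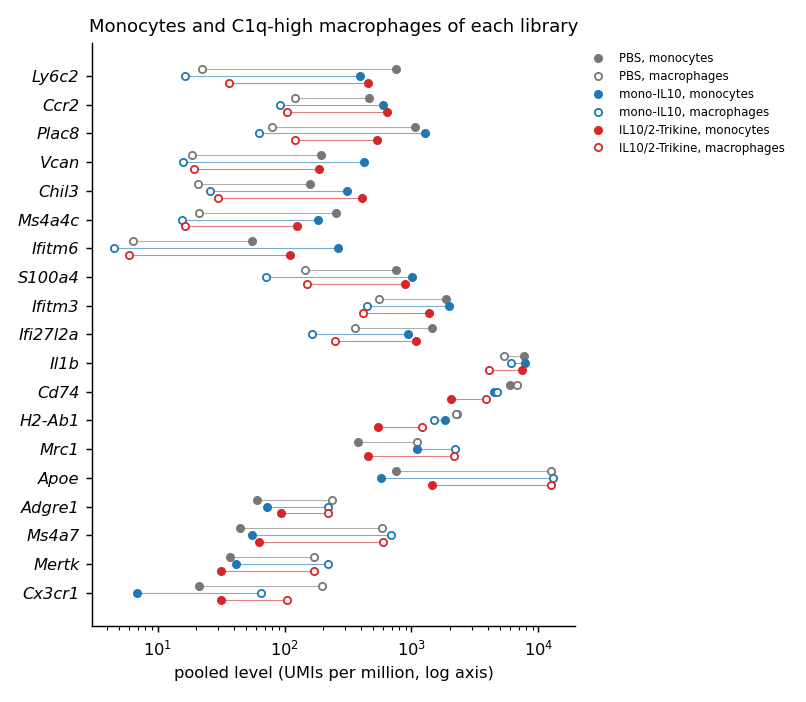
Pooled level of 19 genes in CPM on a log axis, in monocytes (filled circles) and C1q-high macrophages (open circles) of each library; lines join the pair of a library and there are no error bars, since each point pools all cells of a library. Monocyte genes such as Vcan lie to the right in the monocytes of every library (193 against 18.5 in PBS) and macrophage genes such as Apoe to the left (755 against 12530 in PBS); Ly6c2 and Ccr2 were used to choose the cells.

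Type I interferon genes also stood above their macrophage level. Ifitm3, a membrane protein that restricts viral entry, reached 1871, 1983 and 1378 CPM against 553, 445 and 417 in macrophages. Ifi27l2a, a small interferon-induced gene, reached 1448, 940 and 1080 against 356, 165 and 250. Isg15, the ubiquitin-like product of interferon-stimulated cells, reached 427, 275 and 172 against 131, 98.8 and 80.4. Of 28 type I interferon genes, 21 were higher in the monocytes of all 3 libraries and 1 was lower, with medians of 1.52, 1.25 and 1.13 on the log2 scale beside medians of 0.0986, 0.120 and 0.378 over all genes. The interferon-gamma list was near the share of all genes, with 7 of 20 higher and 3 lower beside 2309 and 946 of 6958. T cell marker genes were higher in 7 of 8 cases, with medians of 1.38, 1.53 and 1.44. The calcium-binding gene S100a4 showed the same direction, at 755, 1002 and 893 against 146, 71.8 and 149.

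The inflammatory and matrix genes Il1b, Cxcl2 and Thbs1 were abundant in the monocytes and less set apart from macrophages than the monocyte genes above. Il1b, the inflammasome cytokine, stood at 7749, 7903 and 7406 CPM against 5401, 6087 and 4084. Cxcl2, a neutrophil attractant, stood at 9529, 9824 and 12088 against 7522, 6114 and 5490. Thbs1, the matrix protein thrombospondin-1, stood at 7701, 6780 and 6279 against 5215, 5968 and 5427. These 3 genes differed from macrophages by less than Vcan, Chil3 and Ms4a4c did. Arg1, the arginine-consuming enzyme of suppressive myeloid cells, stood at 1673, 3017 and 1628 against 1016, 2091 and 1568. Ccl24, an eosinophil attractant, stood at 348, 1505 and 783 against 81.8, 248 and 187. Of 18 inflammatory genes, 8 were higher in the monocytes of all 3 libraries and 2 were lower. Of 20 suppressive and wound-repair genes, 10 were higher and 5 lower. Over all 6958 genes with at least 10 UMIs, 2309 were higher and 946 lower.

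Transcripts of other cell types were present and are given here because they touch every comparison below. Counted as at least 3 UMIs over a marker list, neutrophil genes were seen in 37 of 126 monocytes, T cell genes in 26, NK cell genes in 19 and conventional dendritic cell genes in 12. Lists of B cells, tumor epithelial cells, fibroblasts and endothelial cells were met by 1, 4, 2 and 4 cells. Leaving aside the neutrophil list, which shares S100a8 and S100a9 with monocytes, 22 PBS monocytes (31.4%), 14 mono-IL10 monocytes (35.9%) and 8 IL10/2-Trikine monocytes (47.1%) met at least 1 list. NK cell genes were met by 12.9%, 10.3% and 35.3%, and dendritic cell genes by 14.3%, 5.13% and 0%. Several defining markers were at 0 in every library, namely Ly6g, Camp and Ngp of neutrophils, Xcr1 of dendritic cells, Ms4a1 of B cells and Epcam of tumor cells; Cd3e, Ncr1, Klrb1c, Siglech and Flt3 were at 0 by the rule. A single Ly6c2 UMI, the least the rule allows, was held by 40.0% of PBS, 56.4% of mono-IL10 and 64.7% of IL10/2-Trikine cells, at unequal depth; per UMI the order was another, at 757, 396 and 454 CPM. The part of these differences in the results below was not tested beyond the fits that leave out such cells.

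The first question was whether treatment changed how many monocytes the tumors held relative to macrophages. As a share of monocytes plus C1q-high macrophages, PBS mice averaged 0.844% ± 0.465 (SD, n = 5). The average of mono-IL10 mice was 0.579% ± 0.528 (SD, n = 5), and that of IL10/2-Trikine mice 0.306% ± 0.130 (SD, n = 5). In PBS the shares of the 5 mice were 0.130%, 0.885%, 0.713%, 1.33% and 1.16%. In mono-IL10 they were 1.02%, 1.23%, 0.0897%, 0.0981% and 0.448%. In IL10/2-Trikine they were 0.230%, 0.507%, 0.370%, 0.203% and 0.221%. All 5 IL10/2-Trikine mice lay below 4 of the 5 PBS mice and above the remaining PBS mouse, and the mono-IL10 mice spread over the whole range. Each share rests on 1 to 22 monocytes, and the 95% exact binomial intervals of single mice overlapped for many pairs but not all; that of PBS mouse 4 (0.835% to 2.01%) lay above that of IL10/2-Trikine mouse 1 (0.0843% to 0.499%).

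The difference between IL10/2-Trikine and PBS was -0.538 percentage points, with p = 0.0556 in an exact two-sided permutation test and 0.167 after Benjamini-Hochberg adjustment over the 3 comparisons; the smallest p that 5 against 5 mice allow is 0.00794. Mono-IL10 differed from PBS by -0.266 points (exact permutation p = 0.437, adjusted 0.437), and IL10/2-Trikine from mono-IL10 by -0.273 points (exact permutation p = 0.365, adjusted 0.437). No comparison passed the threshold of 0.05, although the first difference was larger than the SD of either group. The PBS mouse with 2 monocytes decided the first comparison, since without it the difference was -0.717 points with an adjusted exact permutation p of 0.0238. With at least 2 Ly6c2 UMIs per monocyte it was -0.408 points (exact permutation p = 0.0238, adjusted 0.0714), and with a hashtag share of 0.9 it shrank to -0.105 points (adjusted exact permutation p = 0.571). At that hashtag share a PBS mouse kept 0 to 6 monocytes and an IL10/2-Trikine mouse 0 to 1. Most monocytes thus had a lower hashtag share, and this value rests on few cells. Depth differed between the libraries, so every cell was also thinned to 3000 UMIs, which left out 11 PBS, 2 mono-IL10 and 7 IL10/2-Trikine monocytes. Of the macrophages, 7155 of 7991 in PBS, 5670 of 6104 in mono-IL10 and 3191 of 5647 in IL10/2-Trikine were deep enough. The C1q limit stayed at 3 UMIs, so a cell above it could come within it, and mono-IL10 mouse 5 went from 5 to 9 monocytes. The means were then 0.614%, 0.542% and 0.205%, and the first difference was -0.409 points (exact permutation p = 0.0556, adjusted 0.167).

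**Figure D2:**
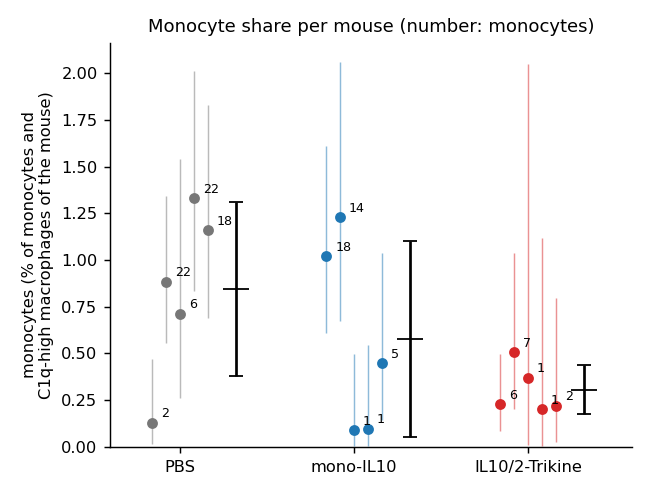
Monocytes as a percentage of monocytes and C1q-high macrophages, 1 point per mouse with the number of its monocytes and a thin line for the 95% exact binomial interval; black bars give the mean and SD of 5 mice. The IL10/2-Trikine mice lie between 0.203% and 0.507%, and the PBS mice range from 0.130% to 1.33%.

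Gene levels between treatments were then compared on UMIs summed per mouse. The 9 mice with at least 5 monocytes entered, 4 of PBS with 6 to 22 monocytes, 3 of mono-IL10 with 5 to 18, and 2 of IL10/2-Trikine with 6 and 7, with sums between 20959 and 170809 UMIs. After a filter on low counts 1746 genes were tested with edgeR's quasi-likelihood test and Benjamini-Hochberg adjustment. The PBS mice served as controls for both treatments. A level in a sum of few cells can rest on 1 of them. Of the IL10/2-Trikine UMIs of Timp1, for example, 1 cell held 60.0%.

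Mono-IL10 monocytes differed from PBS monocytes in 4 genes, which is 0.229% of those tested, while 161 genes had an unadjusted p under 0.05. All 4 were higher, but this balance depended on the fit, since DESeq2 called 6 higher and 3 lower, and edgeR on sums thinned to the lowest total called 1 higher and 2 lower. Saa3 had the largest rise. It encodes serum amyloid A3, an acute-phase protein made by activated macrophages. Per mouse it stood at 37.8, 0, 0 and 0 CPM in PBS, at 544, 1032 and 369 in mono-IL10, and at 47.7 and 122 in IL10/2-Trikine. Among the mice tested, every mono-IL10 mouse lay above every other mouse. All 174 Saa3 UMIs of the mono-IL10 library lay in its tested mice. In the IL10/2-Trikine library 1 cell held 11 of the 15 Saa3 UMIs, and it came from a mouse outside the test. The difference from PBS was 5.71 ± 0.66 (log2, SE; edgeR adjusted p = 0.000957), and as the PBS sum was 4 UMIs from a single cell the size of this fold is loosely set. In mono-IL10, 15 of 39 monocytes held Saa3, with at most 20.7% of its UMIs in 1 cell. The call held in each edgeR or DESeq2 alternative that gave a value, with adjusted p between 1.03e-23 and 0.0346. The lowest came from the edgeR fit with no filter on low counts, which called 71 genes. The fit with all 15 mice gave no value for Saa3.

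Timp1, an inhibitor of matrix metalloproteinases, was next. It stood at 18.9, 175, 36.8 and 97.7 CPM in PBS, 785, 546 and 436 in mono-IL10, and 95.4 and 326 in IL10/2-Trikine. The mono-IL10 mice were again the 3 highest of those tested. The rise was 3.12 ± 0.49 (log2, SE; edgeR adjusted p = 0.0150), with 34.4% of the mono-IL10 UMIs in 1 cell, and it missed the threshold without PBS mouse 2 (0.0572), PBS mouse 4 (0.139) or mono-IL10 mouse 1 (0.102), with sums thinned to the lowest total (0.0808) and with monocytes of 0 C1q UMIs (0.0509).

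Sdc4, a heparan sulfate proteoglycan of the cell surface, and Tspo, a cholesterol-binding protein of the outer mitochondrial membrane, completed the list. Sdc4 stood at 274, 200, 221 and 204 CPM in PBS, 662, 487 and 1106 in mono-IL10, and 191 and 326 in IL10/2-Trikine. Tspo stood at 586, 550, 552 and 560 in PBS, 1212, 1239 and 1240 in mono-IL10, and 620 and 855 in IL10/2-Trikine. For both genes the mono-IL10 mice were above all others tested, and Tspo varied little within each of the first 2 groups. Sdc4 rose by 1.63 ± 0.29 (edgeR adjusted p = 0.0462) and Tspo by 1.11 ± 0.21 (edgeR adjusted p = 0.0471) on the log2 scale. Both sat at the edge of the threshold: without any 1 of the 7 PBS and mono-IL10 mice Tspo was no longer called, with adjusted p from 0.0709 to 0.168, and Sdc4 was called only without mono-IL10 mouse 2.

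The same 4 genes also stood higher in the macrophages of the mono-IL10 mice. Saa3 stood between 2.57 and 17.1 CPM in PBS macrophages and between 29.8 and 39.3 in mono-IL10 macrophages. Timp1 stood between 33.4 and 57.7 and between 101 and 125. Sdc4 ranged from 306 to 361 and from 516 to 624, and Tspo from 267 to 328 and from 351 to 454. The IL10/2-Trikine macrophages also lay above all PBS mice, with Saa3 at 42.8 and 47.2, Timp1 at 84.0 and 108, Sdc4 at 446 and 545, and Tspo at 423 and 387.

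**Figure D3:**
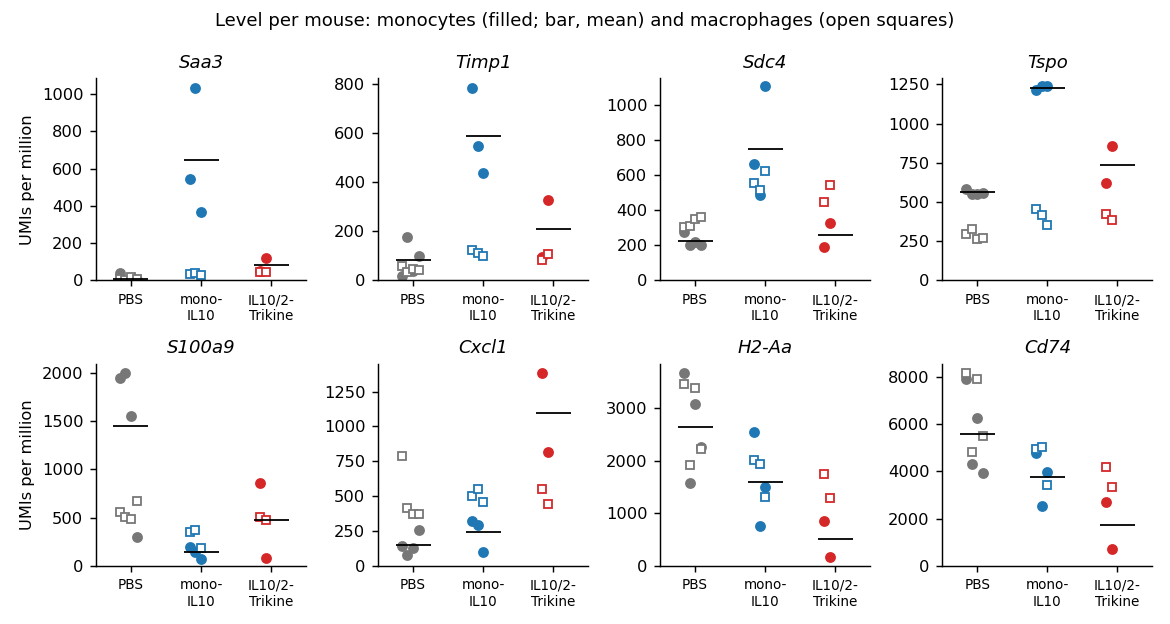
Level of 8 genes per mouse in CPM on linear axes that start at 0, for the 4 PBS, 3 mono-IL10 and 2 IL10/2-Trikine mice with at least 5 monocytes; filled circles are monocytes with a bar at their mean, open squares the C1q-high macrophages of the same mice. Saa3, Timp1, Sdc4 and Tspo are highest in the mono-IL10 monocytes (Saa3 at 369 to 1032 against 0 to 37.8 in PBS). The other 4 genes did not pass the threshold of the main edgeR test in monocytes. Of these, S100a9, H2-Aa and Cd74 were chosen after their values were seen, and Cxcl1 was named through the interaction.

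A few genes lay just above the threshold and were chosen after their values were seen. Ctsl, a lysosomal protease, stood at 170, 125, 212 and 293 CPM in PBS against 685, 442 and 1441 in mono-IL10 (log2 difference 1.90 ± 0.38; edgeR adjusted p = 0.0546). Nfe2l2, which encodes the oxidative stress regulator NRF2, stood at 482, 525, 607 and 435 against 193, 236 and 235 (-1.25 ± 0.26; edgeR adjusted p = 0.0546). S100a9, a subunit of the alarmin calprotectin abundant in neutrophils and monocytes, stood at 1948, 2001, 1555 and 302 against 199, 147 and 67.0 (-3.16 ± 0.65; edgeR adjusted p = 0.0546). For all 3 the groups did not overlap. The value of S100a9 rests on which mice entered, since 1 mono-IL10 cell outside the 3 mice held 150 of the 196 S100a9 UMIs of that library, and over all 15 mice the difference was 0.90 with an edgeR adjusted p of 0.946. S100a8, its partner, was at -2.56 ± 0.53 (edgeR adjusted p = 0.0546) and at 1.46 over all 15 mice (adjusted p = 0.801). Other settings called both genes lower, with adjusted p for S100a8 and S100a9 of 0.00205 and 0.000398 by DESeq2, 0.0423 for each with thinned sums in edgeR, and 0.0250 and 0.0255 with only both groups in the fit.

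IL10/2-Trikine monocytes differed from PBS monocytes in 0 genes (0%) by edgeR, with 142 genes at an unadjusted p under 0.05, and DESeq2 called 1, Cxcl1. Cxcl1, a neutrophil attractant induced by inflammatory signals, stood at 142, 75.0, 129 and 258 CPM in PBS and at 1384 and 814 in IL10/2-Trikine, with 322, 295 and 101 in mono-IL10. Both IL10/2-Trikine mice lay above all others, at a difference from PBS of 2.72 ± 0.45 (log2, SE; edgeR adjusted p = 0.0578, DESeq2 adjusted p = 0.000705). It was seen in 7 of the 17 cells. IL10/2-Trikine and mono-IL10 monocytes differed in 0 genes (0%) by edgeR, with 132 at an unadjusted p under 0.05, and DESeq2 called 0. With 2 IL10/2-Trikine mice and 13 cells in them, a change had to be large to be seen.

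A list of genes of MHC class II presentation, by which myeloid cells show peptides to CD4 T cells, and of monocyte-derived dendritic cells, costimulatory genes included, had the lowest median among lists with at least 5 tested genes in IL10/2-Trikine against PBS. H2-Aa, the class II alpha chain, stood at 3669, 1576, 3074 and 2265 CPM in PBS, 2547, 752 and 1508 in mono-IL10, and 859 and 163 in IL10/2-Trikine. Cd74, the invariant chain that escorts class II molecules, stood at 7897, 4303, 6277 and 3917, then 4766, 2522 and 3988, then 2720 and 692. In both genes the IL10/2-Trikine mice lay below every PBS mouse. The differences from PBS were -2.44 ± 0.63 for H2-Aa (edgeR adjusted p = 0.281) and -1.75 ± 0.48 for Cd74 (edgeR adjusted p = 0.312), so neither passed. H2-Ab1, the beta chain, stood at 3073, 1376, 2402 and 1643 in PBS against 859 and 81.4. Of the 8 genes tested in this list 0 were called, 8 had a negative difference and 5 had an unadjusted p under 0.05, with a median of -1.55. Those 5 were the class II genes H2-Aa, H2-Ab1, H2-Eb1 and Cd74 and the costimulatory gene Cd80. Over all 1746 genes 907 were negative, 142 had such a p and the median was -0.0276. In the macrophages of these mice H2-Aa stood between 1921 and 3450 in PBS and at 1744 and 1298 in IL10/2-Trikine.

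The class II result depended on which cells counted as monocytes. Among monocytes with 0 C1q UMIs, 4 PBS, 2 mono-IL10 and 1 IL10/2-Trikine mice kept at least 5 cells. In that fit 4 class II genes were called lower in mono-IL10 than in PBS, with log2 differences of -3.24 for H2-Aa (edgeR adjusted p = 0.00176), -3.99 for H2-Eb1 (0.000383), -2.69 for H2-Ab1 (0.00718) and -2.17 for Cd74 (0.00521). For IL10/2-Trikine the single mouse allows no replicated comparison, and its values are given as levels only. For H2-Aa those mice stood at 4591, 1669, 3607 and 3338 CPM in PBS, 309 and 413 in mono-IL10, and 51.4 (1 UMI) in IL10/2-Trikine. Among mice with 1 to 4 such cells, H2-Aa was at 210, 3631 and 1917 in mono-IL10 and at 0, 1436 and 828 in IL10/2-Trikine, so that 2 mono-IL10 mice outside the fit lay within the PBS range. In monocytes with 1 to 3 C1q UMIs the direction was the other way. Pooled H2-Ab1 stood there at 1189 CPM in 23 PBS cells and 2913 in 13 mono-IL10 cells. With 0 C1q UMIs it stood at 2869 in PBS and 1122 in mono-IL10. Dendritic cells carry much class II, and their markers were met by 14.3% of PBS, 5.13% of mono-IL10 and 0% of IL10/2-Trikine monocytes. Summed, these markers stood at 365 CPM in PBS and 68.7 in mono-IL10 with 0 C1q UMIs, and at 214 and 916 with 1 to 3. These pooled values were not tested. When cells that met a list of another type were left out, H2-Aa was at -2.21 in mono-IL10 against PBS (edgeR adjusted p = 0.0135) with 2 and 3 mice, and H2-Eb1, H2-Ab1 and Cd74 were not called; 1 IL10/2-Trikine mouse was left, so the part of dendritic cell transcripts in the IL10/2-Trikine levels was not tested. Pooled per library, H2-Aa had a UMI in 70.0% of PBS, 53.8% of mono-IL10 and 47.1% of IL10/2-Trikine monocytes.

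The receptors and feedback genes of the cytokines were detected at modest levels and none was called. Il10ra, the ligand-binding IL-10 receptor chain, stood at 199, 75.0, 166 and 151 CPM in PBS, 111, 221 and 168 in mono-IL10, and 47.7 and 163 in IL10/2-Trikine. Socs3, the STAT3-induced feedback inhibitor, stood at 331, 275, 460 and 338, then 258, 280 and 503, then 477 and 285. Their ranges overlapped between groups. Il2rb, the IL-2 receptor beta chain, was under the filter, at 28.4, 50.0, 92.0 and 17.8 in PBS, 41.0, 29.5 and 67.0 in mono-IL10, and 191 and 40.7 in IL10/2-Trikine, and so was Il10rb, the shared second IL-10 receptor chain, at 0 to 88.5. Il2rg, the common gamma chain, ranged from 0 to 175. Cish, a STAT5-induced inhibitor, stood at 62.2 to 250 in PBS and at 0 and 40.7 in IL10/2-Trikine (-2.45 ± 1.35; edgeR adjusted p = 0.657). In the macrophages of these mice Il2rb stood at 20.9 to 68.3 CPM in PBS, 32.1 to 40.5 in mono-IL10, and 103 and 96.0 in IL10/2-Trikine. Il2rb is also an NK cell gene, and NK markers were met most often in the IL10/2-Trikine library. The part of NK cell transcripts in its values was not tested.

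The remaining lists held few calls. Among 15 tested genes of the IL-10 receptor and STAT3 response, 1 was called higher in mono-IL10, Saa3, beside 4 of all 1746 genes. Of the 15, 10 had a negative difference, beside 890 of 1746, and the median was -0.184. Among 7 tested genes of the IL-2 receptor and STAT5 response, 0 were called in any comparison, and the medians against PBS were -0.860 in IL10/2-Trikine and -0.238 in mono-IL10. Of 21 classical monocyte genes 0 were called, with medians of -0.318 and 0.375, and of 15 monocyte-to-macrophage genes 0 were called, with 0.182 and 0.569. Of 14 inflammatory genes, 8 type I interferon genes, 19 hypoxia and glycolysis genes and 16 immediate early genes 0 were called in any comparison. Immediate early genes, which also respond to tissue dissociation, were negative in 13 of 16 against PBS in each treatment, with medians of -0.652 in IL10/2-Trikine and -0.347 in mono-IL10, and metallothionein and stress genes in 8 and 11 of 12, with -0.547 and -0.799. Hypoxia and glycolysis genes were negative in 16 and 15 of 19. The part of handling in these values was not tested. Of the 7 Fc receptor genes tested, which bind antibody on phagocytes, 0 were called and 7 had a positive difference in mono-IL10 against PBS, beside 856 of 1746. Medians over all 1746 genes were -0.0276 and -0.0100.

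**Figure D4:**
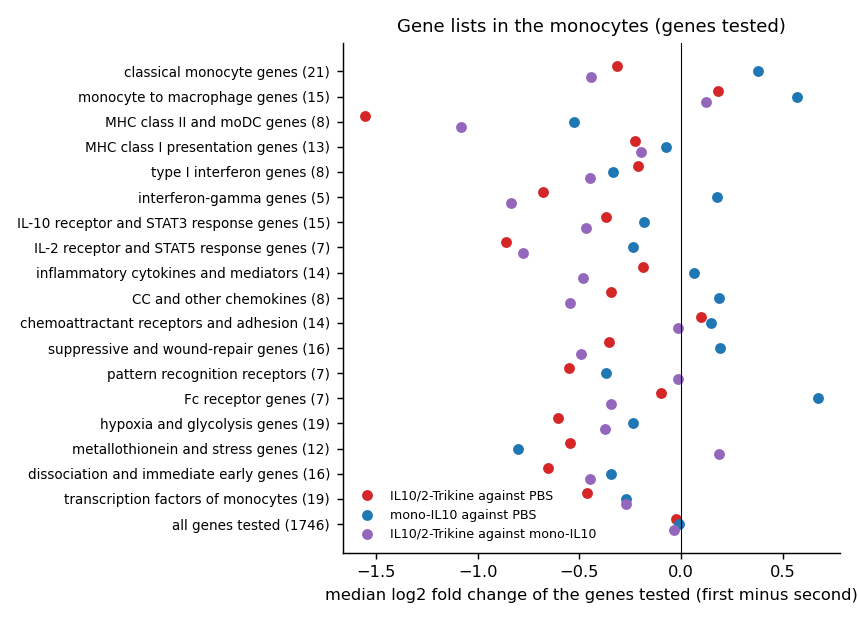
Median log2 difference (horizontal axis, first group minus second) of the tested genes in each list of at least 5, with their number in brackets, in 3 colors for the 3 comparisons; the lowest row gives all 1746 genes and there are no error bars. The list of MHC class II and monocyte-derived dendritic cell genes lies lowest in IL10/2-Trikine against PBS (-1.55), and all genes lie near 0.

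Whether treatment acted differently on monocytes and macrophages was asked with an interaction term over the monocyte and macrophage sums of the same 9 mice with a term for each mouse, which takes up a shift common to a library. The term was called in 15 of 11717 genes for IL10/2-Trikine against PBS (0.128%), 37 for mono-IL10 against PBS (0.316%) and 7 for IL10/2-Trikine against mono-IL10 (0.0597%). These counts depended on the genes and the spread that entered the fit. Limited to the 1746 genes that passed the filter in monocytes, edgeR called 0, 1 and 0, and limma with a weight for each cell class called 0, 6 and 0.

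Tmsb10, an actin-binding thymosin of immature and migrating cells, was the gene called under both of those alternatives in mono-IL10. In monocytes it stood at 3490, 4178, 4040 and 2753 CPM in PBS at 5972, 8716 and 5764 in mono-IL10, and at 5773 and 8385 in IL10/2-Trikine. In macrophages it stood at 1563, 2361, 2192 and 1836 in PBS, at 1132, 1024 and 1101 in mono-IL10, and at 1777 and 1692 in IL10/2-Trikine. The monocytes of both treatments thus lay above every PBS mouse, while macrophages lay below every PBS mouse with mono-IL10 and within the PBS range with IL10/2-Trikine. For mono-IL10 against PBS the difference between the classes was 1.67 ± 0.28 (log2, SE; edgeR adjusted p = 1.11e-05), and for IL10/2-Trikine against PBS 0.72 ± 0.32 (edgeR adjusted p = 0.927). The difference in monocytes alone did not pass (0.90 ± 0.22; edgeR adjusted p = 0.154). With all sums thinned to the lowest total the difference was 1.58 (edgeR adjusted p = 0.0606).

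Fn1, which encodes fibronectin, was called in the interaction of both comparisons with PBS. In monocytes it stood at 1844, 4228, 672 and 2318 CPM in PBS, 1610, 1150 and 1173 in mono-IL10, and 620 and 1465 in IL10/2-Trikine, with groups that overlapped. In macrophages it stood at 720, 1326, 755 and 1159 in PBS, 2287, 2289 and 2712 in mono-IL10, and 1814 and 2519 in IL10/2-Trikine, above all PBS mice. The monocyte-minus-macrophage difference was -1.94 ± 0.30 in mono-IL10 (edgeR adjusted p = 1.11e-06) and -2.51 ± 0.37 in IL10/2-Trikine (edgeR adjusted p = 2.32e-07). Mrc1, the mannose receptor of wound-repair macrophages, was called in the interaction between the treatments, at -2.65 ± 0.52 (edgeR adjusted p = 0.00166). Its level in monocytes alone did not pass between the treatments (-2.35 ± 0.59, edgeR adjusted p = 0.593). In monocytes it stood at 558, 275, 313 and 284 in PBS, 1206, 900 and 938 in mono-IL10, and 382 and 40.7 in IL10/2-Trikine, whereas in macrophages it stood at 966 to 1285, 2237 to 2445, and 1962 and 2551. The interaction of Mrc1 was -2.33 ± 0.52 for IL10/2-Trikine against PBS (edgeR adjusted p = 0.00887) and for mono-IL10 against PBS, where it did not pass, 0.32 ± 0.32. Neither Fn1 nor Mrc1 was called when the test was limited to genes that passed the filter in monocytes.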

How the data were processed

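The deposited matrices hold counts of UMIs per gene and barcode, not normalized, which the authors made with Cell Ranger on GRCm39; the submitters' processing notes also name Seurat 5.1.0 and DESeq2 1.46.0. The hashtag part gives the mouse. The deposited annotation (T and NK cells only) was used to leave cells out; it also lists 7858 cells of a group not analysed here. The members and gene lists were chosen with earlier results of these data known, and several lists come from textbook knowledge.

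Levels are CPM, a gene's UMIs over all UMIs of the same cells scaled to 1000000. Shares per mouse were tested by exact permutation, two-sided (scipy 1.17.1, Python 3.11.15) with Benjamini-Hochberg adjustment over 3 comparisons. Counts summed per mouse were tested with edgeR 4.0.16 (R 4.3.3; TMM, filterByExpr, glmQLFit, all groups in 1 fit, adjusted p under 0.05); DESeq2 1.42.0 and limma 3.58.1 were alternatives. A minimum of 20 monocytes per mouse had been planned, but only 2 mice, both of PBS, had that many, so the minimum was set to 5 from the cell numbers before genes were tested. The edgeR step was tested on simulated counts. No library was sampled again, so p-values measure the spread between mice within libraries.

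Genes were named if called, with at least 20 CPM in the higher group and no overlap of mice (the 10 largest each way), plus called list members, 6 cytokine receptor and feedback genes, and for the interaction the 5 largest called differences each way. Other named genes were chosen after their values were seen.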

Additional observations from a re-analysis of the deposited data

Results flagged for a closer look

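Within PBS, 7 gene levels stood apart from those of the other 3 mice by more than Dixon's limit. Chance passes that limit in about 1 group of 20 for a gene chosen beforehand. Only named genes were checked, and all 7 had been named for a called difference in these data, so that rate does not apply. For Saa3, Cp and Col4a1 the other 3 mice were also at 0, where any UMI passes. In PBS mouse 2, Mrc1 was at 558 CPM against 275 to 313, and Saa3 at 37.8 (4 UMIs, all in 1 cell) against 0 in the others. In PBS mouse 5, the matrix and stromal genes Col4a1, Sparc, Serpine2 and Col1a1 were at 1164, 897, 346 and 231 CPM, with Col4a1 at 0 and the other 3 between 0 and 36.8 in the other mice. For each of these 4 genes 1 cell held most UMIs of the PBS monocytes, with 98.5% for Col4a1, 96.2% for Sparc, 95.1% for Serpine2 and 83.9% for Col1a1. In PBS mouse 4, Cp was at 9.20 CPM, which is 1 UMI, against 0.

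The remaining flags are monocyte-minus-macrophage differences that passed the interaction test across 11717 genes (log2, edgeR). In mono-IL10 against PBS, Saa3 was at 3.82, Ifitm6 at 2.91, Timp1 at 1.73 and Tmsb10 at 1.67. Fn1 was at -1.94, the calprotectin genes S100a8 and S100a9 at -1.73 and -2.30, and the heat shock genes Hspa1a and Hspa1b at -2.05 and -2.75. Of the Hspa1a and Hspa1b UMIs, 1 cell held 55.5% and 58.0% in PBS, and 1 cell held 77.8% and 91.7% in mono-IL10. Of the differences in this paragraph, edgeR called only Tmsb10 over the 1746 genes that passed the filter in monocytes. Limma called 6 genes there, Tmsb10 among them.

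In IL10/2-Trikine against PBS, the class II genes H2-Aa, H2-Ab1 and Cd74 were at -2.09, -1.86 and -1.50, and Cxcl1 was at 2.22. No difference in this paragraph was called by edgeR or limma over the 1746 genes that passed the filter in monocytes. In monocytes alone edgeR called 0 genes in either of its comparisons. The transcription factors Klf4 and Nfil3 were at -3.48 and -2.91, Mrc1 at -2.33, Fn1 at -2.51, Plac8 at -1.78 and S100a9 at -1.89. In IL10/2-Trikine against mono-IL10, the EGF receptor ligand Areg was at 2.67, and Saa3 at -3.55, Klf4 at -2.86, Mrc1 at -2.65, Plac8 at -2.57, H2-Ab1 at -1.90 and H2-Aa at -1.84. For IL10/2-Trikine against PBS, Plac8 was at -0.98 without IL10/2-Trikine mouse 1 (edgeR adjusted p = 0.987) and at -3.53 without mouse 2. Plac8 was also abundant in the keratin-high barcodes, and its part in these values was not tested.

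Other flagged values rest on a group in which no monocyte of the mice tested held the gene, or nearly all on 1 cell, so they set no bound on a fold. In mono-IL10 against PBS these were Pclaf (11.87), Wfdc21 (11.81), Gzma (11.49, with 89.1% of its mono-IL10 UMIs in 1 cell), Ighm (-11.73), Sparc (-11.28), Serpine2 (-11.15), Col1a1 (-10.85) and Col4a1 (-10.85). In IL10/2-Trikine against PBS these were Hspa1b (-12.97) and Hspa1a (-12.89), both with 0 UMIs in IL10/2-Trikine, and Cp (5.56), whose 15 UMIs in that library lay in 1 cell.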

How the results depend on the processing

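No paired analysis was possible because hashtag numbers name different mice in each library; the interaction fit holds a term for each mouse, which pairs its monocytes with its macrophages. The minimum of 20 monocytes per mouse left no treated mouse, and a hashtag share of 0.9 left too few mice for the gene test, so neither gave a value. For the monocyte share, no alternative changed a direction; leaving out 1 mouse gave -0.717 to -0.417 points for IL10/2-Trikine against PBS, and only that without PBS mouse 1 (-0.717) passed after adjustment.

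Counts of called genes moved more. For IL10/2-Trikine against PBS (0), DESeq2 called 1 and no filter on low counts 45. Monocytes with 0 C1q UMIs gave 7 and monocytes without markers of other types 6 (chosen after seeing the data), but each with 1 IL10/2-Trikine mouse, so these counts compare that mouse and say nothing of the treatment. Leaving out 1 mouse gave 0 to 1. For mono-IL10 against PBS (4), the counts in the same order were 9 (6 higher), 71 (26 higher), 8 (2 higher) and 9 (5 higher), 13 (8 higher) with only both groups in the fit, 3 (1 higher) with thinned sums, 1 (Alcam, lower) with all 15 mice, and 1 to 4 when leaving out 1 mouse. For IL10/2-Trikine against mono-IL10 (0), no filter gave 19. Of 61 alternative values for the 4 called genes, 34 kept the call, 27 lost it and 0 turned.

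The interaction counts of 15, 37 and 7 became 2, 1 and 0 with thinned sums, 0, 1 and 0 over genes that passed the filter in monocytes, and 0, 6 and 0 with limma; leaving out 1 mouse gave 7 to 17, 12 to 47 and 5 to 13, with the fewest without IL10/2-Trikine mouse 2, mono-IL10 mouse 2 and mono-IL10 mouse 5. Values that turned were Col4a1 (1.32 without PBS mouse 5, -11.56 to 1.32 over the mice left out) and Gzma (-1.23 with 0 C1q UMIs) for mono-IL10 against PBS, H2-Ab1 for the same (-2.23 with 0 C1q UMIs, edgeR adjusted p = 4.64e-08, against 0.04, not called; -0.22 with thinned sums, and -0.25 to 0.58 over the mice left out, negative in 4 of these 7 fits), and Cp (-7.32 without IL10/2-Trikine mouse 2) and Plac8 (0.74 with thinned sums) for IL10/2-Trikine against PBS. The cause was not tested. The IL10/2-Trikine monocytes had the lowest sums, with 20959 and 24568 UMIs in the 2 mice tested.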

Other observations

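Monocytes with 5 or more Ly6c2 UMIs numbered 26, of which 15 were from PBS, 10 from mono-IL10 and 1 from IL10/2-Trikine. In the 15 PBS cells Plac8 stood at 2496 CPM and Ms4a4c at 675, compared with 633 and 97.4 in the 28 PBS cells with a single Ly6c2 UMI. The mono-IL10 library did not repeat this, with 1103 and 106 in its 10 cells and 1184 and 194 in its 22 cells with a single UMI. Summed over the type I interferon list, the levels were 10211 against 3564 CPM in PBS and 6316 against 4068 in mono-IL10. Apoe stood at 778 against 1088 and at 317 against 867. These values pool cells of several mice, differ in number of cells, and were not tested, since Ly6c2 chose the cells.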
